A study of Mus musculus with 29 samples.

Results

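The Hedgehog pathway genes described here are 9 genes taken by symbol: Shh, Ptch1, Smo, Gli1, Gli2, Gli3, Hhip, Gas1 and Boc. They are 9 of the 38355 genes listed for the untreated RNA-seq libraries and of the 48709 genes listed for the treated libraries, and the rule that picks them uses no measured value. All 9 passed the filter on low counts in both experiments, in which 15770 and 16372 genes were tested. Of the 22220 H3K27me3 regions, 17 lay at these genes.

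Hedgehog signalling starts with a secreted ligand, of which Sonic hedgehog (Shh) is the main one in the forebrain. Without ligand, the receptor Patched1 (Ptch1) holds the membrane protein Smoothened (Smo) inactive. Ligand binding to Ptch1, helped by the co-receptors Gas1 and Boc, frees Smo to act through the primary cilium on the GLI transcription factors, which then switch on targets that include Gli1, Ptch1 and the ligand-binding inhibitor Hhip. The pathway is best known in the forebrain for ventral patterning and for the proliferation of neural progenitors, and Gli3 acts largely as a repressor in the dorsal telencephalon.

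RNA-seq of the mouse cortex at E17.5 was analysed in 19 libraries of C57BL/6J embryos in 5 groups, together with H3K27me3 ChIP-seq of 8 libraries. BAF155 and BAF170, encoded by Smarcc1 and Smarcc2, are the paired core subunits on which BAF chromatin remodelling complexes depend. In the dcKO_hGFAP-Cre embryos both genes were floxed on both alleles (Baf155 fl/fl, Baf170 fl/fl) and deleted by Cre under the human GFAP promoter, which acts first in the medial pallium and later in the dorsal and lateral pallium, so that cells without Cre keep both genes. The first experiment compared 3 untreated libraries with the letter M and 4 with the letter C, and H3K27me3 was compared between 4 libraries with the letter K and 4 with the letter C. The genotype field in GEO reads BAF dcKO_hGFAP-Cre for all of these, controls included, and the study's own tables tie C to controls, which carried Cre and 1 floxed allele of each gene (Baf155 fl/+, Baf170 fl/+), and M and K to dcKO. The second experiment held 4 libraries labelled wild type and treated with vehicle (WT vehicle), 4 dcKO libraries with vehicle (dcKO vehicle), and 4 dcKO libraries with the Wnt inhibitor ICG-001, which blocks transcription by β-catenin (dcKO Wnt inhibitor). Vehicle and inhibitor were injected daily into the pregnant mice, so the whole embryo was exposed.

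Promoter sequence from RefSeq was matched for 6 of the 9 genes on GRCm38. The 250 bases before the start of Gli2 (chr1:119053620-119053869, minus strand), Smo (chr6:29735247-29735496, plus strand) and Hhip (chr8:80058009-80058258, minus strand) are shown because H3K27me3 peaks lay over these windows and no annotated exon touches them. Capitals mark each CG dinucleotide, and the sequences run 5′ to 3′.
Gli2: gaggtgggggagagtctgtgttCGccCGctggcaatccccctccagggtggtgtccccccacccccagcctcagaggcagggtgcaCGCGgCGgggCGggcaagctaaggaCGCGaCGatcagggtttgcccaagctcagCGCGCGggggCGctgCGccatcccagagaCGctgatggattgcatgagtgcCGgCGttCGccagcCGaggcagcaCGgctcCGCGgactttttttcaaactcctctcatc
Smo: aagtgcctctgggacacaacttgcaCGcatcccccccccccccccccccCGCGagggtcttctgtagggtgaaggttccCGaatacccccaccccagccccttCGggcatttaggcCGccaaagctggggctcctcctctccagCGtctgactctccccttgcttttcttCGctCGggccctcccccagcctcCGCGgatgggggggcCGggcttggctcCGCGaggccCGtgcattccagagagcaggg
Hhip: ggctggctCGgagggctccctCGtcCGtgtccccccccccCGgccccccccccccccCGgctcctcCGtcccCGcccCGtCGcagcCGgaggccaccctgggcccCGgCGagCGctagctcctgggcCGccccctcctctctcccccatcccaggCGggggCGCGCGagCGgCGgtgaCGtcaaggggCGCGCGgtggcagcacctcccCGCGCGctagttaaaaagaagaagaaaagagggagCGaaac
The printed stretches held 22, 15 and 28 CG dinucleotides. Over the whole windows, which add 50 bases after the start, the counts of CG were 28 in Gli2, 17 in Smo, 30 in Hhip, 39 in Gli3, 17 in Gas1 and 47 in Ptch1, against a median of 7 over 32851 windows of the same length. The motif GACCACCCA, bound by GLI proteins, was searched on both strands and was found in 0 of the 6 windows, and in 0.253% of all windows.

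The depth of the RNA libraries was 11946658 to 28391046 counts. Smarcc1, checked first because it is the targeted gene, went against the label in 4 libraries. Relative to the control mean of its experiment, Smarcc1 was at 95.4% in the library labelled untreated M replicate 2, 91.1% in dcKO vehicle replicate 2, 80.5% in dcKO Wnt inhibitor replicate 1 and 94.6% in replicate 2 of the same group. The other libraries labelled M or dcKO were at 49.8% to 52.6%, apart from dcKO Wnt inhibitor replicate 4 at 65.1%. Smarcc2 stood at 670, 692, 644 and 695 CPM (CPM being the count scaled to a common library size) in the 4 libraries and at 398 to 439 CPM in those near the 50% level, with 586 CPM in dcKO Wnt inhibitor replicate 4. A count over the whole gene holds exons outside the floxed part and cells without Cre. Groups were kept as labelled, and results are also given without these 4 libraries, which were chosen at a limit of 75% after the data were seen.

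The 2 RNA experiments were not independent. The deviations of each untreated library from its group mean, over 15220 genes, correlated best with the vehicle library of the same genotype and the same number in 7 of 7 cases, with r from 0.20 to 0.80 for the 7 same-numbered pairs and from -0.70 to 0.50 for the 21 others. The labels do not say that they share tissue, and values of the untreated and vehicle comparisons below are not a replication of each other. Nothing in the labels says whether libraries came from separate embryos or litters, so the p-values measure only the spread between libraries, which may be technical.

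The members covered a wide range of levels, and the levels per length placed them in 3 tiers in all 5 groups. Gas1, Boc and Smo were highest, with group means of 6.53 to 11.5 RPKM. Ptch1, Gli3, Gli2 and Gli1 lay in between, from 1.63 RPKM for Gli1 in untreated C to 5.22 RPKM for Gli3 in untreated M. Hhip and Shh were lowest, at 0.226 to 0.371 RPKM, and their ranges overlapped in every group.

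Neighbours within a tier mostly overlapped. Boc and Smo overlapped in every group. In untreated C the lowest Ptch1 value (2.09 RPKM) was above the highest Gli1 value (1.72 RPKM), whereas in untreated M the ranked order was turned, with Gli1 at 3.23 ± 0.723 RPKM (SD, n = 3) and Ptch1 at 2.72 ± 0.874 RPKM (SD, n = 3), and the ranges overlapped. The counting of strand is not stated, and exons of genes on the opposite strand cover up to 15.7% of the exon length of Shh (9530036O11Rik) and 19.9% of that of Gas1 (Gm48488), so the values of these genes may hold reads from those neighbours.

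**Figure D1:**
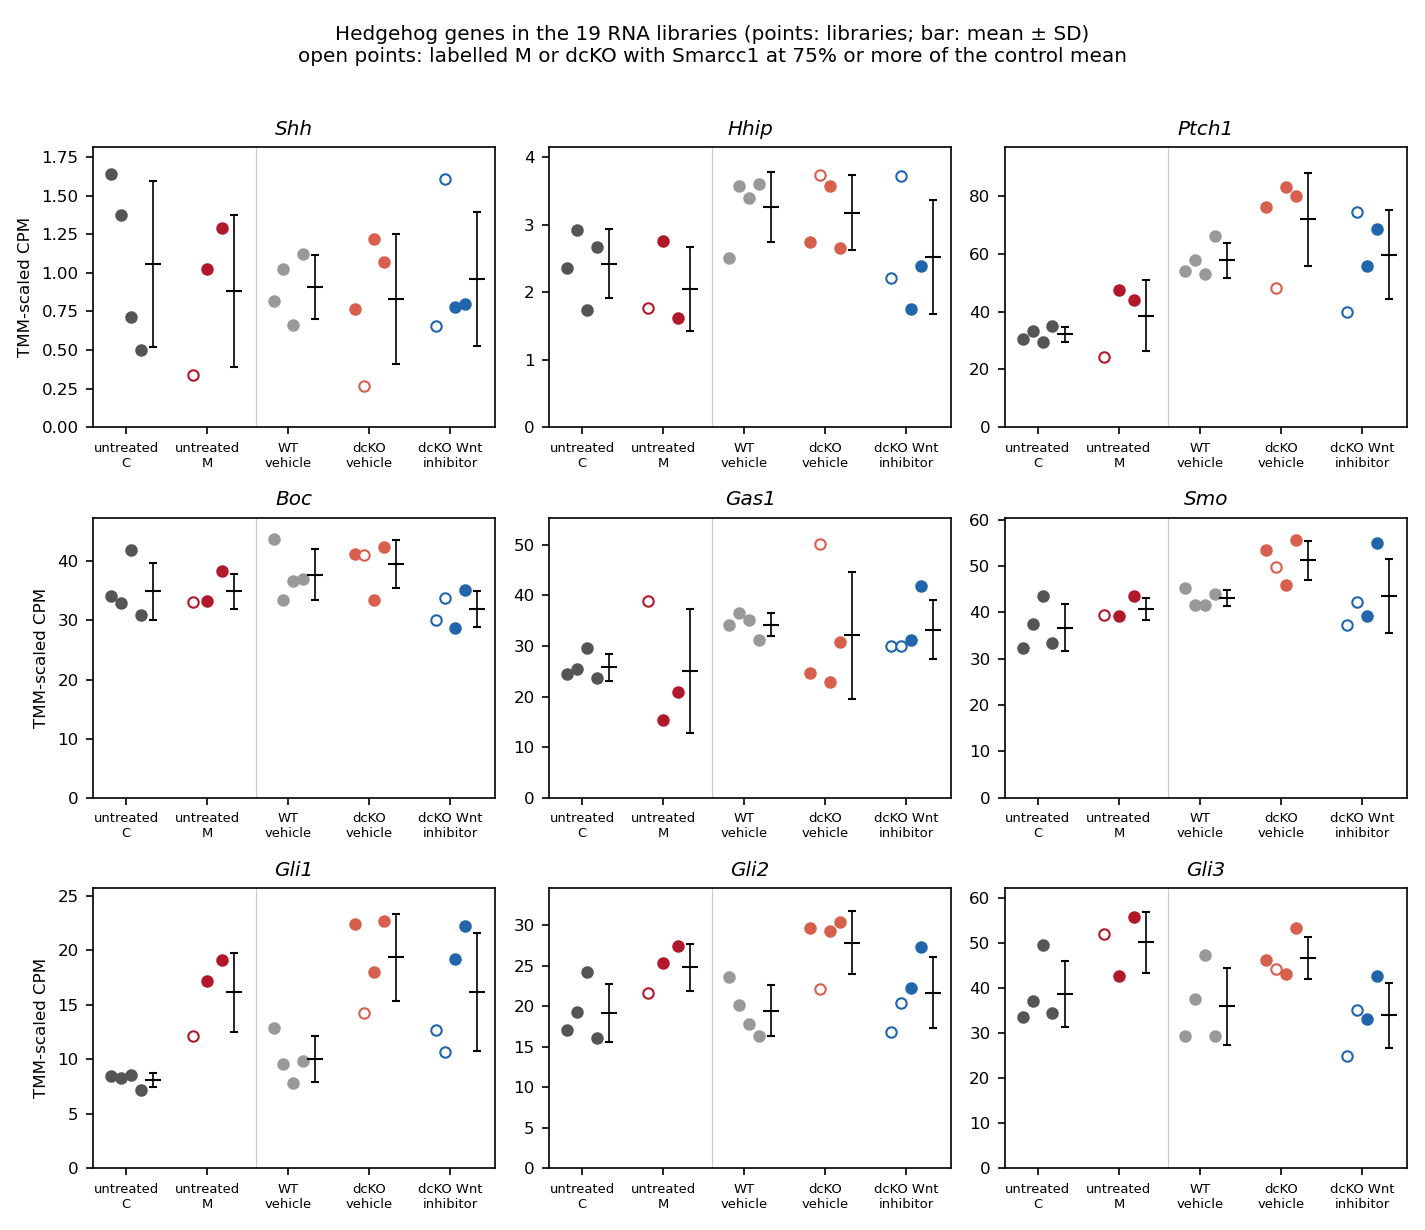
Expression of the 9 Hedgehog genes as TMM-scaled CPM, 1 point per library in 5 groups, with the mean and SD beside each group and a grey line between the experiments. Gli1 was between 7.18 and 8.57 CPM in untreated C and between 12.1 and 19.1 CPM in untreated M, and the open points, which mark the 4 libraries with Smarcc1 at 75% or more of the control mean, were the lowest of their group for Gli1 in each of the 3 groups that hold them.

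Loss of both BAF subunits was accompanied by more Gli1 RNA, with smaller and less certain differences in Gli2, Gli3 and Ptch1 and little in the ligand and co-receptors. By the quasi-likelihood test of edgeR, adjusted over all genes after Benjamini and Hochberg, 0 of the 9 members had an adjusted p under 0.05 in untreated M against C, where 0.00634% of all genes tested did. The same count was 0 of 9 in dcKO vehicle against WT vehicle, against 0.00611% of all genes. At an unadjusted p under 0.05, 3 of 9 members (Gli1, Gli2 and Gli3) were higher in each comparison, where 7.91% and 4.14% of all genes were, and 0 of 9 were lower, where 8.14% and 5.33% were. DESeq2, the tool of the study, called 1 of 9 members in each, Gli1, with an adjusted p of 4.79e-06 and 0.0236, where 2.03% and 0.377% of all genes were called. Here and below the DESeq2 shares are over 26053 untreated and 31304 treated genes, without the filter on low counts. They are therefore not comparable with the edgeR shares. The median log2 difference of the 9 members was 0.15 untreated and 0.25 with vehicle, against 0.00 over all genes tested in both.

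Gli1, a transcriptional activator and the most direct readout of pathway activity among the members, differed most. Its CPM in untreated C replicates 1 to 4 was 8.49, 8.29, 8.57 and 7.18, and in untreated M replicates 2 to 4 it was 12.1, 17.2 and 19.1. The groups did not overlap, which held upwards for 1 of 9 members and for 6.96% of all genes (downwards for 0 of 9 and 6.21%), and the library labelled M replicate 2 was the lowest of the M libraries. The log2 difference was 1.0 (SE 0.15), a 2.0-fold difference, with an unadjusted p of 7.64e-05 and an adjusted p of 0.0801. Without that library the log2 difference was 1.15 (SE 0.11, adjusted p = 0.000128).

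With vehicle, Gli1 read 12.8, 9.57, 7.86 and 9.80 CPM in WT replicates 1 to 4, and 22.4, 14.3, 18 and 22.7 CPM in dcKO replicates 1 to 4. Again the groups did not overlap, as for 2 of 9 members (Gli1 and Smo) and 3.08% of all genes, while 0 of 9 members and 2.58% of all genes lay wholly below WT. The log2 difference was 0.94 (SE 0.24, adjusted p = 0.234). Without dcKO vehicle replicate 2 and the 2 inhibitor libraries it was 1.06 (SE 0.16, adjusted p = 0.00367). Counts behind these values were 95 to 496 per library, and exons of Arhgap9 and Gm47200 on the opposite strand cover 1.24% and 5.31% of the exon length of Gli1.

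Gli2, the main activator downstream of Smo, was at 17.1, 19.3, 24.2 and 16 CPM in untreated C and at 21.7, 25.3 and 27.5 CPM in untreated M. With vehicle it was at 23.6, 20.2, 17.8 and 16.3 CPM in WT and at 29.6, 22.1, 29.3 and 30.4 CPM in dcKO. In both experiments the groups overlapped through 1 high control library and the library labelled M or dcKO replicate 2. The log2 differences of Gli2 were 0.37 (SE 0.15, adjusted p = 0.261) and 0.52 (SE 0.16, adjusted p = 0.325). Without the libraries set aside they were 0.46 (adjusted p = 0.078) and 0.61 (adjusted p = 0.0265) and the second of these passed the test.

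Gli3, which serves mostly as the repressor, was at 33.7, 37.1, 49.5 and 34.5 CPM in untreated C and at 52.0, 42.6 and 55.6 CPM in untreated M, with log2 difference 0.37 (SE 0.15, adjusted p = 0.271). With vehicle it was at 29.3, 37.6, 47.3 and 29.4 CPM in WT and at 46.2, 44.2, 43.0 and 53.3 CPM in dcKO, with log2 difference 0.38 (SE 0.18, adjusted p = 0.517). The highest control library of each experiment, replicate 3, lay inside the range of the M or dcKO libraries. Leaving out the libraries with high Smarcc1 gave 0.34 and 0.41 for Gli3, and neither passed the test (adjusted p = 0.226 and 0.267).

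Ptch1, the receptor and itself a target, was at 30.5, 33.4, 29.6 and 35.0 CPM in untreated C and at 24.4, 47.4 and 44.1 CPM in untreated M. With vehicle it was at 54.1, 57.7, 53.0 and 66.2 CPM in WT and at 76.3, 48.1, 83.2 and 80.1 CPM in dcKO. In each experiment the library labelled replicate 2 of the M or dcKO group was below all controls, and the other M or dcKO libraries were above all controls. The log2 differences of Ptch1 were 0.28 (SE 0.20, adjusted p = 0.537) and 0.32 (SE 0.19, adjusted p = 0.671). Without the libraries set aside Ptch1 rose by 0.51 (SE 0.09, adjusted p = 0.00408) and 0.46 (SE 0.11, adjusted p = 0.0311).

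The co-receptors Gas1 and Boc had differences near 0 with all libraries, and Gas1 varied widely within the M and dcKO groups. Gas1 was at 24.4, 25.5, 29.6 and 23.6 CPM in untreated C and at 38.9, 15.4 and 21 CPM in untreated M, so that M replicate 2 was the highest and the other M libraries the lowest of the experiment. With vehicle Gas1 was at 34.1, 36.4, 35.1 and 31.1 CPM in WT and at 24.6, 50.2, 22.9 and 30.8 CPM in dcKO, with the same arrangement around replicate 2. Its log2 differences were -0.07 (SE 0.28) and -0.09 (SE 0.21) with all libraries, and -0.51 (SE 0.14, adjusted p = 0.038) and -0.39 (SE 0.14, adjusted p = 0.161) without those set aside. Boc stayed close between groups, with log2 differences of -0.00 (SE 0.11) and 0.07 (SE 0.11).

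Smo, the signal transducer, was at 32.3 to 43.4 CPM in untreated C and 39.2 to 43.5 CPM in untreated M, a log2 difference of 0.15 (SE 0.11, adjusted p = 0.523). With vehicle it was at 41.7 to 45.2 CPM in WT and 46.0 to 55.7 CPM in dcKO, without overlap, and the log2 difference was 0.25 (SE 0.12, adjusted p = 0.542). Shh, the ligand, gave 4 to 39 counts per untreated library and 6 to 29 per treated library. Its log2 differences were -0.14 (SE 0.48) and -0.15 (SE 0.40), and both were positive without the libraries set aside, at 0.14 and 0.13. Hhip, which binds and sequesters the ligand, differed by -0.21 (SE 0.26) and -0.04 (SE 0.23). Hhip gave 21 to 93 counts per library, and these differences, like those of Shh, were within 1 SE of 0.

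**Figure D2:**
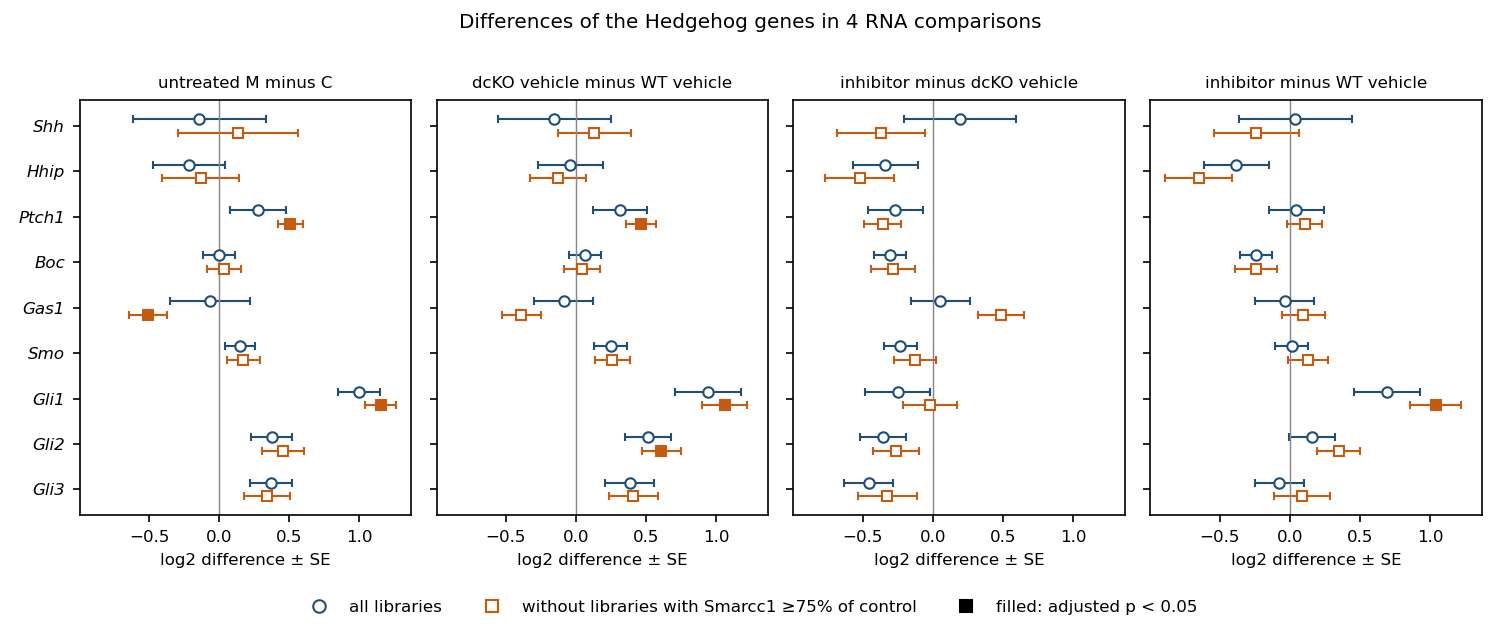
Log2 difference of each Hedgehog gene in the 4 RNA comparisons, as estimate ± SE, with all libraries (circles) and without the 4 libraries whose Smarcc1 was at 75% or more of the control mean (squares). Filled symbols have an adjusted p under 0.05, and these are squares only, with Gli1 at 1.15, 1.06 and 1.04 in 3 of the 4 panels.

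Leaving out the libraries that went against their label changed the count of members called. In untreated M against C, 2 of 9 members rose (Gli1 and Ptch1) and 1 of 9 fell (Gas1) without M replicate 2, where 5.57% of all genes tested rose and 6.88% fell. In dcKO vehicle against WT vehicle, 3 of 9 rose (Gli1, Gli2 and Ptch1) and 0 of 9 fell, against 2.47% and 3.34% of all genes. Leaving out dcKO vehicle replicate 2 alone called 1 of 9 (Gli1), against 3.4% of all genes. Since these libraries were singled out by Smarcc1, the level of which differs between the groups by design, these counts describe the remaining libraries and are not an independent test.

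Gli1 was low in the libraries labelled M or dcKO that had high Smarcc1, and no such order held among the others, where for example M replicate 4 had slightly more of both than M replicate 3. The library with the highest Smarcc1 of its group had the lowest Gli1 in untreated M (12.1 CPM), in dcKO vehicle (14.3 CPM) and in dcKO Wnt inhibitor (10.7 CPM). Gas1 was highest in the same library in untreated M (38.9 CPM) and dcKO vehicle (50.2 CPM), but not in dcKO Wnt inhibitor (30.0 CPM, against 42.0 CPM in replicate 4). In bulk tissue, fewer cells with deletion or fewer cells of a type and a different amount of RNA per cell cannot be told apart.

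**Figure D3:**
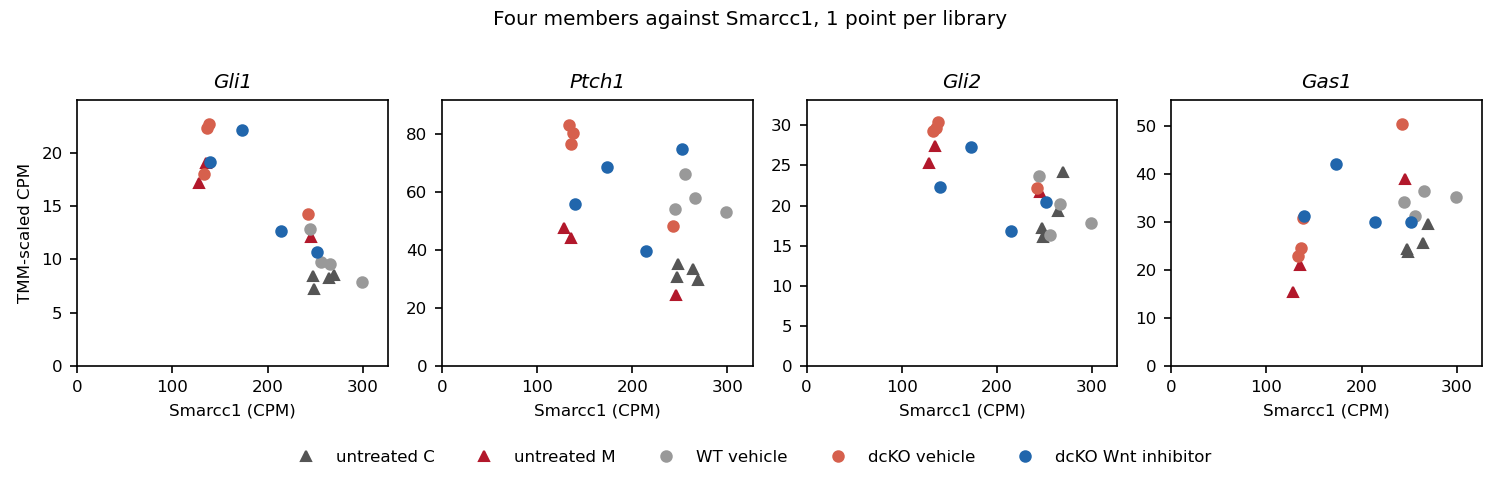
Gli1, Ptch1, Gli2 and Gas1 (TMM-scaled CPM, vertical axes) against Smarcc1 (CPM, horizontal axes), 1 point per library, with triangles for the untreated and circles for the treated experiment. The libraries labelled M or dcKO with Smarcc1 of 214 CPM or more were at 10.7 to 14.3 CPM for Gli1, against 7.18 to 12.8 CPM in the controls.

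Whether the genotype difference itself differed between the experiments was tested by the interaction of genotype and experiment, which treats the libraries as independent. At an unadjusted p under 0.05, 0 of 9 members differed, where 0.544% of all genes did, and 0 of 9 had an adjusted p under 0.05 by edgeR. For Gli1 the vehicle difference minus the untreated difference was -0.05 (SE 0.25) on the log2 scale, and for Gli2 it was 0.15 (SE 0.22).

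The Wnt inhibitor was compared with vehicle within dcKO to see how far it moved the members. Most had lower values with the inhibitor, with a median log2 difference of -0.27 over the 9 members against 0.01 over all genes tested. By edgeR, 0 of 9 members had an adjusted p under 0.05, where 0.055% of all genes did, and DESeq2 called 0 of 9, where it called 1.1% of all genes. At an unadjusted p under 0.05, 3 of 9 (Gli2, Gli3 and Boc) were lower and 0 of 9 higher, where 8% and 7.85% of all genes were. With the libraries set aside left out, none of these 3 was under that limit by edgeR (adjusted p = 0.443 for Gli2, 0.461 for Gli3 and 0.37 for Boc), while 1 of 9 was lower (Ptch1, log2 difference -0.36) and 1 of 9 higher (Gas1), where 9.84% and 8.11% of all genes were. The controls of this comparison, dcKO vehicle, also enter the comparison with WT vehicle above, so a high value in them raises one difference and lowers the other.

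Gli3 with the inhibitor was at 24.8, 35.1, 33.2 and 42.5 CPM, below all 4 dcKO vehicle libraries, as for 1 of 9 members and 4.03% of all genes, while 0 of 9 members and 4.48% of all genes lay wholly above. The log2 difference was -0.46 (SE 0.18, adjusted p = 0.25). Gli2 was at 16.8, 20.4, 22.3 and 27.3 CPM (log2 difference -0.36, SE 0.16, adjusted p = 0.308) and Boc at 30.1, 33.9, 28.7 and 35.1 CPM (-0.31, SE 0.11, adjusted p = 0.24). For Boc, the range with dcKO vehicle was 33.5 to 42.4 CPM, so the groups overlapped. Ptch1 was at 39.8, 74.6, 55.9 and 68.4 CPM with the inhibitor, with log2 difference -0.27 (SE 0.19, adjusted p = 0.518). For Smo, Hhip, Gas1 and Shh the log2 differences were -0.23, -0.34, 0.05 and 0.19, and for none of them did the groups separate.

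Gli1 with the inhibitor split between the libraries. It was at 12.7 and 10.7 CPM in replicates 1 and 2, the pair with high Smarcc1, and at 19.2 and 22.2 CPM in replicates 3 and 4. Against dcKO vehicle the log2 difference was -0.25 (SE 0.23, adjusted p = 0.622), and without the libraries set aside it was -0.02 (SE 0.19, adjusted p = 0.973). Removing those libraries, 0 of 9 members passed in this comparison, where 0.303% of all genes rose and 0.72% fell. For Gas1 the sign held but the size moved, from 0.05 to 0.49 (SE 0.16, adjusted p = 0.156).

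Against WT vehicle, dcKO Wnt inhibitor libraries still had more Gli1, by 0.69 (SE 0.24, adjusted p = 0.154) on the log2 scale. Of the 9 members 0 had an adjusted p under 0.05 by edgeR, where 0.0977% of all genes did, and 0 by DESeq2, where 2.34% did. At an unadjusted p under 0.05, 1 of 9 was higher (Gli1) and 0 were lower, against 9.53% and 10.2% of all genes. Without the libraries set aside Gli1 rose by 1.04 (SE 0.18, adjusted p = 0.01), the only 1 of 9 members to pass there, where 2.66% of all genes rose and 4.72% fell. Without dcKO Wnt inhibitor replicate 2 alone the log2 difference was 0.84 (adjusted p = 0.038). For Ptch1, Smo and Gli3 the log2 differences from WT vehicle were 0.05, 0.01 and -0.08. None of the 9 members lay wholly above or below WT vehicle, as 3.48% and 4.02% of all genes did.

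Genes that act beside the members were described from fixed lists, of which 0 of 48 genes tested untreated and 0 of 49 tested with treatment had an adjusted p under 0.05 by edgeR in any comparison. At an unadjusted p under 0.05, 12 of 48 were higher and 4 of 48 lower in untreated M against C, where 7.91% and 8.14% of all genes were. In dcKO vehicle against WT vehicle 10 of 49 were higher and 0 of 49 lower, where 4.14% and 5.33% of all genes were. DESeq2 called 8 genes untreated (Gpc4, Cdon, Sfrp1, Ccnd1, Cc2d2a, Ift80, Fuz and Iqce) and 2 with vehicle (Gpc4 and Cc2d2a), all higher, where it called 2.03% and 0.377% of all genes. For the inhibitor against dcKO vehicle DESeq2 called 3 lower (Cdon, Cc2d2a and Dync2h1) and 1 higher (Nkx2-1), where it called 1.1% of all genes. Against WT vehicle it called 3 lower (Dync2h1, Dyrk2 and Kif3a) and 2 higher (Gpc3 and Nkx2-1), where it called 2.34%. Among surface proteins that bind Hedgehog ligands (Cdon, Lrp2, Gpc3 and Gpc4), 2 of 4 were higher at an unadjusted p under 0.05 in both genotype comparisons, where 7.91% and 4.14% of all genes were. In the same list 1 of 4 was lower untreated and 0 of 4 with vehicle, where 8.14% and 5.33% of all genes were. Cdon, a co-receptor related to Boc, was at 101 to 133 CPM in untreated C and 148 to 164 CPM in untreated M, with log2 difference 0.44 (SE 0.10, adjusted p = 0.135). Cdon was also at 90.4 to 128 CPM in WT vehicle and 139 to 154 CPM in dcKO vehicle (0.47, SE 0.14, adjusted p = 0.296), and at 77.4 to 116 CPM with the inhibitor (-0.50 from dcKO vehicle, SE 0.14, adjusted p = 0.174 by edgeR and 0.0469 by DESeq2). The dcKO vehicle libraries enter both of the last differences.

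Among the other known targets, 2 of 8 tested untreated and 2 of 9 with vehicle were higher at an unadjusted p under 0.05, where 7.91% and 4.14% of all genes were. In neither comparison was a target lower, against 8.14% and 5.33% of all genes. The median log2 differences of the list were 0.01 and -0.01, so the list as a whole did not move. Sfrp1, a secreted Wnt antagonist, was at 124 to 157 CPM in untreated C and 188 to 249 CPM in untreated M (log2 difference 0.75, SE 0.11, adjusted p = 0.0801), and at 108 to 152 and 176 to 241 CPM with vehicle (0.76, SE 0.21, adjusted p = 0.281). The same 2 comparisons gave 0.51 (adjusted p = 0.0929) and 0.55 (adjusted p = 0.303) for the cell cycle gene Ccnd1. Without the libraries set aside Ccnd1 and Sfrp1 rose in both comparisons. These genes and Gpc4, Disp1 and Iqce below were singled out after their values were seen, as were all genes of the wider lists named here that the study does not list under Shh signalling.

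Of the cilium proteins 7 of 16 were higher untreated and 5 of 16 with vehicle at an unadjusted p under 0.05, against 7.91% and 4.14% of all genes, and 0 were lower in either. Cc2d2a, of the ciliary transition zone, was at 25.9 to 29.3 CPM in untreated C and 32.0 to 41.6 CPM in untreated M (log2 difference 0.46, SE 0.10, adjusted p = 0.119), and the difference with vehicle was 0.52 (SE 0.12, adjusted p = 0.221). With the inhibitor Cc2d2a was at 22.1 to 30.1 CPM (-0.48 from dcKO vehicle, SE 0.12, adjusted p = 0.155 by edgeR and 0.0174 by DESeq2). Iqce, which holds the Evc complex at the cilium, differed by 0.40 and 0.41. Without the libraries set aside 5 of 16 rose untreated and 2 of 16 with vehicle, against 5.57% and 2.47% of all genes, and 0 fell.

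All ligands were low, with Ihh and Dhh under 0.7 CPM in every library and Shh at 0.267 to 1.64 CPM. Of the genes for ligands and their release, 1 of 6 tested was higher at an unadjusted p under 0.05 in both genotype comparisons, Disp1, the transporter that releases the ligand (log2 difference 0.54 untreated and 0.74 with vehicle, adjusted p = 0.269 and 0.308), against 7.91% and 4.14% of all genes. In the same list 1 of 6 was lower untreated, Scube1, a secreted protein that helps to release the ligand, with log2 difference -0.22 (adjusted p = 0.251), against 8.14% of all genes, and 0 of 6 with vehicle. Disp1 rose in both comparisons without the libraries set aside, and Scube1 fell untreated, by 0.34 (adjusted p = 0.00533). Gpc4, a glypican of the cell surface, had the smallest p of the wider lists untreated, with log2 difference 0.84 (SE 0.11, adjusted p = 0.0683), and 0.82 (SE 0.19, adjusted p = 0.221) with vehicle. The regulators of GLI processing (14 genes, among them Sufu, Kif7 and Gpr161) had median log2 differences of -0.02 and -0.01, and at an unadjusted p under 0.05, 0 of 14 were higher in either comparison, while 2 of 14 were lower untreated (Gsk3b and Dyrk2), against 8.14% of all genes, and 0 of 14 with vehicle. Untreated, 2 of 14 fell without the libraries set aside (Dyrk2 and Stk36), against 6.88% of all genes, and 0 of 14 did so with vehicle.

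The study itself listed 9 genes under Shh signalling, Gli1, Gli3, Cdon, Evc, Cc2d2a, Ift80, Sfrp1, Fuz and Shox2. At an unadjusted p under 0.05, 9 of 9 were higher untreated and 8 of 9 with vehicle, with median log2 differences of 0.44 and 0.47, and 0 of 9 passed the adjustment by edgeR. DESeq2 called 7 of 9 untreated and 3 of 9 with vehicle. The list was chosen by the study on these samples and is not independent evidence of its direction. Shox2, a transcription factor, had 0 counts in the 4 untreated C libraries and 0, 1, 0 and 2 counts in WT vehicle, against 21, 292 and 206 in untreated M and 191, 38, 219 and 169 in dcKO vehicle. With the inhibitor it had 2 and 4 counts in replicates 1 and 2 and 179 and 104 in replicates 3 and 4, so that each library with high Smarcc1 was the lowest or among the 2 lowest of its group.

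**Figure D4:**
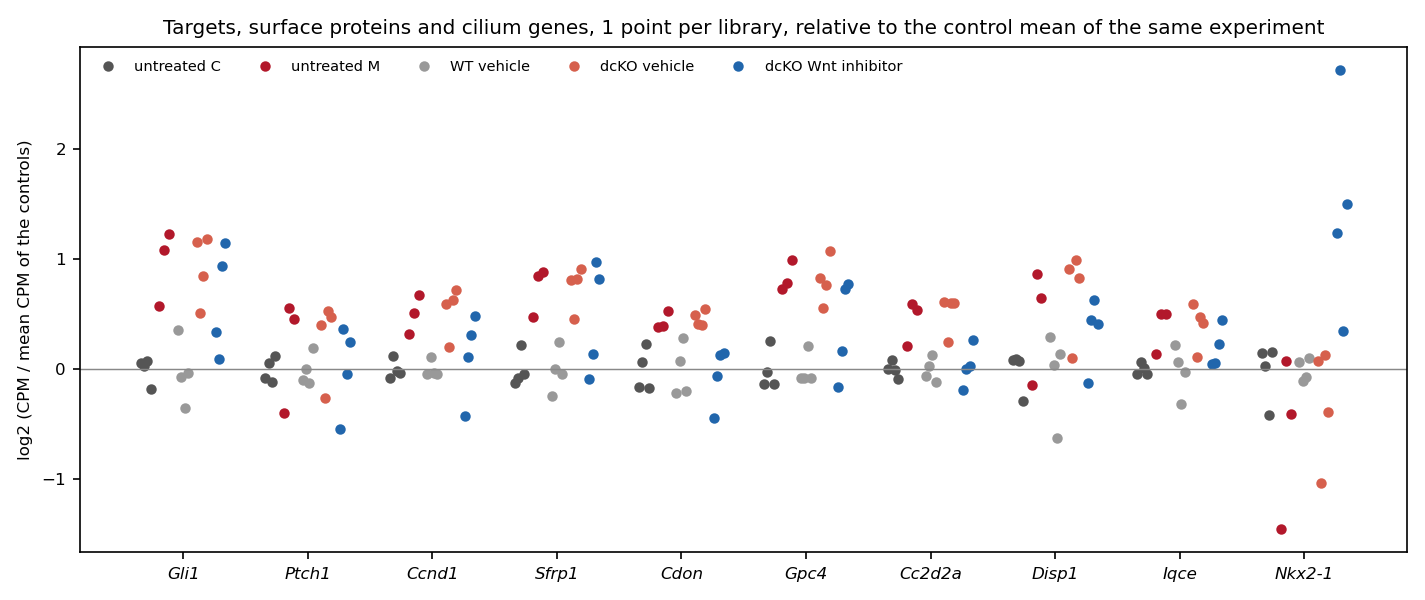
Log2 of CPM over the mean CPM of the controls of the same experiment, 1 point per library, for Gli1, Ptch1 and 8 further genes of the pathway lists. Gpc4, Sfrp1, Cdon and Cc2d2a had all M and dcKO vehicle libraries above their controls, and Nkx2-1 was highest in the inhibitor libraries, at 4.42 to 22.8 CPM.

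Marker sums of cell and tissue types varied between libraries. In the genotype comparisons their ranges overlapped between groups, also for oligodendrocyte precursors, meningeal fibroblasts and microglia. The exception was endothelium untreated, at 83.3 to 94.9 CPM in M and 97.7 to 117 CPM in C. Of 5 oligodendrocyte precursor markers, 3 were lower and 0 higher untreated at an unadjusted p under 0.05, against 8.14% and 7.91% of all genes. With vehicle 1 of 5 was lower and 1 of 5 higher, against 5.33% and 4.14%. Without the libraries set aside 1 of 5 rose in each comparison, against 5.57% and 2.47% of all genes, and 0 of 5 fell, against 6.88% and 3.34%. The summed level of 6 pallial markers was 2071 to 2739 CPM in untreated C and 2849, 1387 and 1553 CPM in untreated M, and it was 2021 to 2885 CPM in WT vehicle and 1309, 2665, 1425 and 1629 CPM in dcKO vehicle. In each experiment replicate 2 of M or dcKO vehicle had the highest pallial sum and the lowest Gli1 of its group, and the other libraries of those groups followed no such order. With all libraries 0 of 6 pallial markers were lower at an unadjusted p under 0.05 untreated, where 8.14% of all genes were. With vehicle 2 of 6 were, against 5.33% of all genes, and 0 passed the adjustment in either. Without the libraries set aside 3 of 6 fell in untreated M against C and 4 of 6 in dcKO vehicle against WT vehicle, where 6.88% and 3.34% of all genes fell. Gli1 and Ptch1 rose in the same fits. For subpallium and interneuron markers the sum of 10 genes was 547 to 653 CPM in untreated C and 458, 811 and 729 CPM in untreated M. It was 563 to 687 CPM in WT vehicle, 482 to 856 CPM in dcKO vehicle and 748 to 1001 CPM with the inhibitor. With the inhibitor 8 of 10 were higher than in WT vehicle at an unadjusted p under 0.05, where 9.53% of all genes were, and 0 passed the adjustment. Without the libraries set aside 7 of 10 rose in that comparison, where 2.66% of all genes did. In the genotype comparisons of such fits 4 of 10 rose in each, where 5.57% and 2.47% of all genes did. The median log2 differences there were 0.41 untreated and 0.43 with vehicle. With all libraries 1 of 10 was higher untreated and 0 of 10 with vehicle at an unadjusted p under 0.05, against 7.91% and 4.14% of all genes. Nkx2-1, a Hedgehog target that defines the ventral telencephalon, was at 8.19, 22.8, 4.42 and 9.80 CPM with the inhibitor and at 3.22 to 3.72 CPM in WT vehicle (log2 difference 1.70, SE 0.40, adjusted p = 0.0812). The 6 choroid plexus markers summed to 842, 158 and 479 CPM in dcKO Wnt inhibitor replicates 1 to 3, to 131 and 128 CPM in replicate 4 of untreated C and of WT vehicle, and to 4.70 to 16.7 CPM elsewhere, with Ttr carrying most of it and Kcnj13 at 0 to 9 counts in the untreated and vehicle libraries. Radial glia markers summed to 1601 to 2095 CPM over all groups, but single markers went both ways. This also held with all libraries at an unadjusted p under 0.05. Untreated, 4 of 10 were higher and 1 of 10 lower, against 7.91% and 8.14% of all genes. With vehicle, 1 of 10 was higher and 1 of 10 lower, against 4.14% and 5.33% of all genes. Without the libraries set aside 4 of 10 rose and 3 of 10 fell untreated, where 5.57% and 6.88% of all genes did. With vehicle 0 of 10 rose and 3 of 10 fell in such a fit, where 2.47% and 3.34% of all genes did. The part of these markers in the results for the members was not tested.

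H3K27me3, the repressive mark laid down by Polycomb complexes, had peaks called at the start of all 9 members, though in few libraries for Smo, Gas1 and Boc. A region within 2000 bp of the start was found for 9 of 9 members, 10 regions in all, against 25.9% of the protein-coding genes tested in the treated libraries. Libraries were counted where they had a peak anywhere in such a region, which can extend beyond the 2000 bp. By that count at least 6 of the 8 libraries had a peak for 6 of 9 members, against 12.2%. All 8 had a peak for 2 of 9 (Shh and Ptch1), against 3.42%. These shares describe the members, which were named for their pathway, and carry no test.

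The enrichment did not differ detectably between K and C at any member. By limma on the log2 of the highest fold enrichment over input per region, with 1 where no peak was called, 0 of the 17 member regions had an adjusted p under 0.05, as for 0% of all regions, and 0 of 17 had an unadjusted p under 0.05, where 0.221% of all regions did. The log2 differences ran from -0.28 (Gli3 start) to 1.05 (upstream of Gas1, SE 0.75), with a median of 0.09 against 0.05 over all regions, and 13 of 17 were positive, against 59.8% of all regions. With standard errors of 0.53 to 0.90 at these regions, a difference of the size measured in RNA was not detectable.

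Shh carried the widest and most enriched region, 19045 bp long at chr5:28455572-28474616 on mm10, over the whole gene. Its fold enrichment in C replicates 1 to 4 was 10.7, 5.36, 13.8 and 5.04, and in K replicates 1 to 4 it was 12.2, 11.5, 5.44 and 9.93, so the groups overlapped. The share of the Shh gene with 2000 bp on each side that peaks covered was 57.4%, 93.7%, 14.6% and 94.8% in C and 67.2%, 11.1%, 91.8% and 94.6% in K. After duplicates were removed, 12.3% to 66.5% of tags remained. The pair of libraries with low cover, C replicate 3 and K replicate 2, were among those that kept few tags. C replicate 1 and K replicate 1 also kept few tags, C replicate 1 a smaller share than K replicate 2, but their cover was 57.4% and 67.2%. Cover moved with library rather than with group, and a relation of cover to the tags kept was not tested.

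The Ptch1 region at the start (chr13:63567775-63577442, 9668 bp, over the start and 5823 bp into the gene) had fold enrichments of 9.72, 4.47, 8.43 and 4.49 in C and 10.3, 4.61, 4.27 and 7.19 in K, with log2 difference -0.04 (SE 0.63). The RefSeq promoter window of Ptch1, at another start inside the gene, had a peak in 0 of 8 libraries. Gli1 had 2 regions. A wide one lay 8220 to 20118 bp downstream of its start and reached past the end of the gene (-0.01, SE 0.66). This region had a peak in 8 of 8 libraries, but in C replicate 3 and K replicate 2 none lay in Gli1 or within 2000 bp of it. The other region lay over the start of Gli1, with a peak in 6 of 8 (0.09, SE 0.87). The cover of Gli1 was 15.2%, 50.4%, 0% and 34.4% in C and 11.3%, 0%, 35.9% and 56.3% in K. No difference in the mark between K and C was detectable at Gli1.

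At the other GLI genes and Hhip the start regions had peaks in 7 (Gli3), 6 (Gli2) and 6 (Hhip) of 8 libraries, with highest fold enrichments of 8.48, 5.43 and 7.34. For Smo, Gas1 and Boc the start region had a peak in 3 of 8 libraries, each time C replicate 1, K replicate 1 and K replicate 4. These were the libraries with the most peaks called, 28659, 18408 and 46000, against 6674 to 13326 in the others. These 3 members, the most highly expressed per length, had the fewest libraries with a peak in the start region, and Shh, among the lowest, had the most enriched region. The other members did not follow their levels. Hhip, about as low as Shh, had 6 libraries, as did Gli1 and Gli2, and Ptch1 had 8. Gas1 also had a second region upstream of its start, with a peak in K replicates 1 and 2. A relation of level and mark was not tested. Over the whole promoter windows, which add 50 bases after the start to the printed stretches, peaks lay in 3 (Gli2), 3 (Smo) and 5 (Hhip) of 8 libraries.

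**Figure D5:**
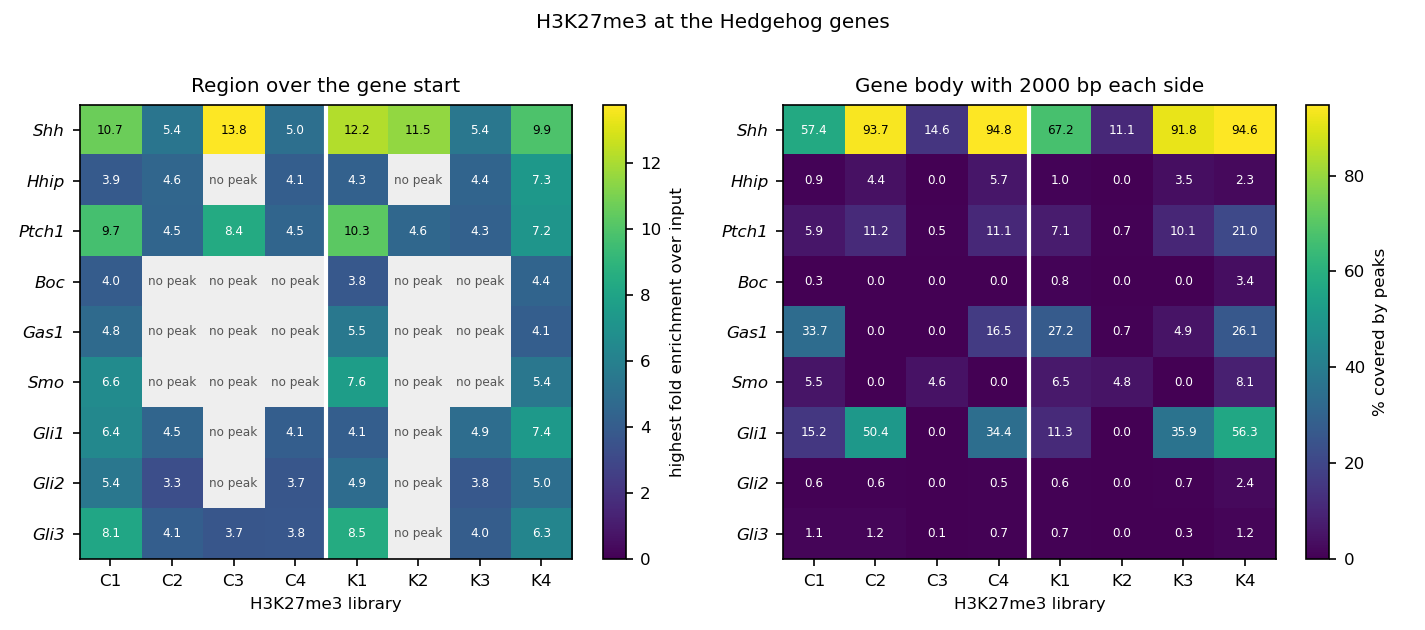
H3K27me3 at the Hedgehog genes in C and K libraries, as the highest fold enrichment over input of the region at the gene start (left, scale from 0, grey where no peak was called) and as the percentage of the gene body with 2000 bp on each side covered by peaks (right). Shh reached 13.8-fold in C replicate 3 and 12.2-fold in K replicate 1, whereas the start regions of Boc, Gas1 and Smo had peaks in C1, K1 and K4 alone.

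The genes most like 3 of the members were found by the root mean square difference of standardised log2 CPM over the 12 treated libraries, among 16372 genes, where 0 is an identical pattern. For Gli1 they were Tcf7l1 (0.247), Mfge8 (0.275) and Dll3 (0.284). For Gli3 they were Pms2 (0.296), Cdon (0.303) and Pms1 (0.306), and for Ptch1 they were Dnmt3a (0.203), Zfp618 (0.214) and Pcdh10 (0.266). These patterns follow the libraries as well as the groups, and no test was made of them.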

How the data were processed

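RNA-seq counts and H3K27me3 peaks of E17.5 cortex were used. The authors mapped RNA reads to mm10 with STAR and deposited raw counts per Ensembl gene from featureCounts; the annotation and strand setting are not given in the sources used here. For H3K27me3 the authors removed duplicate tags and ran MACS2 on each library for broad peaks, against 1 pooled input per group and at a q-value limit of 0.1. The deposited lists give each peak's fold enrichment over input (a ratio), its pileup signal and its -log10 q-value.

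Counts were fitted with edgeR 4.0.16 (TMM, filterByExpr, robust quasi-likelihood test) in R 4.3.3, the untreated and the 12 treated libraries apart, with Benjamini-Hochberg adjustment over all genes tested. CPM and RPKM were computed from these counts and the exon lengths of GENCODE M21 on GRCm38, the build of mm10. Overlapping peaks were merged, regions seen in 2 or more libraries were kept, and limma 3.58.1 was run on their log2 fold enrichment. Alternatives were DESeq2 1.42.0, its size factors, no filter, a replicate block, other limits on peaks and each library left out. The fits were tested on simulated data. Depth was 11946658 to 28391046 counts (RNA), and 12.3% to 66.5% of tags were kept (H3K27me3), and library numbers limit the precision of all tests.

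Groups of the untreated and H3K27me3 libraries follow the letters of their titles. Named genes were the 9 members in every comparison, Smarcc1 and Smarcc2, genes that the study lists under Shh signalling, genes of the wider lists with an adjusted p under 0.05, all H3K27me3 regions at members, and the 3 genes nearest in pattern to Gli1, Gli3 and Ptch1. One gene of the wider lists is not reported here and was left out of their counts. The members and lists were chosen with earlier results of these data known. Same-numbered libraries of the groups compared did not deviate together throughout (r over 0.1 in 0 of 3, 1 of 4, 2 of 4, 2 of 4 and, for H3K27me3, 2 of 4 pairs), so no block was used. Replicates of a group differed by more than sampling noise, with a chi-square per gene of at least 6.27.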

Additional observations from a re-analysis of the deposited data

Results flagged for a closer look

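In 62 groups of 4 libraries, the highest or lowest library was tested for a gap to the nearest other library that is large against the range of the group, and 7 passed the limit. Chance flags about 1 in 20 groups. The library labelled dcKO vehicle replicate 2 accounted for 3 of them, with Smarcc1 at 242 CPM and Smarcc2 at 692 CPM, both above the other dcKO vehicle libraries, and Gli2 at 22.1 CPM, below them. Shh was high in dcKO Wnt inhibitor replicate 2, at 1.61 CPM from 28 counts. Gas1 was high in dcKO Wnt inhibitor replicate 4, at 42.0 CPM, and Boc was low in dcKO vehicle replicate 3, at 33.5 CPM. H3K27me3 peaks covered 0.311% of the Boc gene in C replicate 1 and 0% in the other C libraries.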

How the results depend on the processing

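Of the alternatives, those that set which members passed an adjusted p under 0.05 were the test, the filter and the libraries, and the cause was not tested. In untreated M against C, where 0 of 9 members passed, 1 passed with no filter, 1 with DESeq2 and 3 without the libraries set aside, and the count was 0 to 3 when each library was left out in turn. In dcKO vehicle against WT vehicle, 1 passed with DESeq2 and 3 without the libraries set aside (0 to 1 with each library left out), and in dcKO Wnt inhibitor against WT vehicle 1 passed without the libraries set aside (0 to 1). Counts in the inhibitor against dcKO vehicle, in the interaction and at the H3K27me3 regions stayed at 0 under every alternative run. Over all genes the number called was 1, 1, 9 and 16 in untreated M against C, dcKO vehicle against WT vehicle, and the inhibitor against dcKO and WT vehicle. It was 529, 118, 344 and 733 with DESeq2, 154, 0, 20 and 58 with no filter, 0, 5, 7 and 189 with the block, and 1994, 978, 172 and 1241 without the libraries set aside. With only the 2 groups compared it was 0, 7 and 8 in the treated comparisons. Shh and Hhip had the lowest counts, at under 100 per library.

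With the replicate number as a block, 0 members passed in any RNA comparison and 0 regions at members in H3K27me3, so the block changed no count. Shh untreated was at 0.17 under the block, against -0.14 without it.

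The following single values turned sign. When each library was left out, Shh ran from -0.47 to 0.15 untreated, -0.40 to 0.14 with vehicle, -0.15 to 0.44 with the inhibitor against dcKO vehicle and -0.31 to 0.17 against WT vehicle, and Gas1 ran from -0.51 to 0.20, -0.39 to 0.043, -0.082 to 0.35 and -0.17 to 0.0084. Boc untreated ran from -0.076 to 0.10 and Hhip with vehicle from -0.15 to 0.040. For the inhibitor against dcKO vehicle, Evc ran from -0.14 to 0.039, Ift80 from -0.18 to 0.020 and Fuz from -0.0036 to 0.16. Against WT vehicle, Ptch1 ran from -0.078 to 0.20, Smo from -0.12 to 0.079, Gli3 from -0.21 to 0.080, Cc2d2a from -0.047 to 0.11 and Cdon from -0.10 to 0.077. The interaction without M replicate 2 was -0.18 for Ptch1 and 0.43 for Gas1. At the start regions the ranges were -0.29 to 0.16 (Ptch1), -0.49 to 0.69 (Gli1), -0.38 to 0.66 (Gli2), -0.66 to 0.37 (Gli3) and -0.28 to 0.83 (Hhip). With pileup as the value Gli1 was at -0.23 and Gli2 at -0.12, and with peaks at a q-value under 0.01 Gli3 was at 0.67.

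Without the libraries set aside, chosen after the data were seen, the sign turned for Shh (0.14 untreated, 0.13 with vehicle, -0.37 and -0.24 with the inhibitor against dcKO and WT vehicle, and 0.0030 in the interaction) and Boc untreated (0.033). It also turned for Evc (0.081) and Sfrp1 (0.053) against dcKO vehicle, for Gli3 (0.083), Gas1 (0.097) and Cdon (0.14) against WT vehicle, and for Ptch1 (-0.036) and Gas1 (0.12) in the interaction. Of the values of single genes and regions over all alternatives, 1231 kept direction and side of the threshold, 63 passed it newly and 76 turned sign.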
